A study of Mus musculus with 10 samples.

Results

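Chemokines of the CC family that guide lymphocytes and dendritic cells, and the receptors that read them, were followed in the back skin of mice treated with DMBA, a mutagen that initiates skin tumors, and TPA, a phorbol ester that promotes them. The set was chosen by gene symbol and holds 9 of the 24454 genes in the table. It pairs *Ccl19* with *Ccr7*, *Ccl20* with *Ccr6*, *Ccl17* and *Ccl22* with *Ccr4*, and *Ccl27a* with *Ccr10*. RNA came from 5 WT and 5 *Zfp36*ΔARE mice, all on the C57BL/6 background, with 1 library per mouse. *Zfp36*ΔARE animals carry a deletion of the AU-rich element in the 3′-UTR of *Zfp36*, the gene of tristetraprolin (TTP), in the whole body, so no single cell type is targeted, and controls were littermates. Both groups received 400 nmol of DMBA once at 7 weeks of age. From the next week, TPA was applied to the same shaved skin at 10 nmol, 2 times a week for 20 weeks. Full-thickness pieces without tumor were taken at the end, and every control was treated too, so no untreated skin enters the comparison. The labels used here give neither the sex of the mice nor the number of copies of the altered allele.

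Chemokines are small secreted proteins that bind seven-helix receptors on leukocytes and draw the cells along a gradient. CCR7 directs dendritic cells and naive T cells toward lymphatic vessels and lymph nodes, where CCL19 and CCL21 are displayed. CCL20 is an epithelial product that attracts CCR6-bearing dendritic cells, B cells and IL-17-producing T cells. CCL17 and CCL22, made largely by dendritic cells and macrophages, recruit CCR4-bearing T cells, among them regulatory, type 2 and skin-homing cells, and CCL27 is a keratinocyte product that attracts CCR10-bearing T cells to the epidermis. TTP binds AU-rich elements in the 3′-UTRs of many inflammatory mRNAs and hastens their decay.

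The pentamer ATTTA is the core of such elements, and the heptamer TATTTAT contains it, so both were counted in the reference 3′-UTRs of the 9 genes (GENCODE annotation, GRCm38, the build also called mm10). Only the strand of the gene was read, and each heptamer is also counted among the pentamers. The following stretches of the reference are shown because *Ccl20* is the member richest in the motif, because *Ccl22* holds the only other heptamer, and because *Ccr4* is a member with pentamers whose level did not pass the test. All lie in the last exon, within the 3′-UTR, written 5′ to 3′ on the strand of the gene, with capitals for the motifs.
*Ccl20* heptamer, chr1:83118908-83118937, plus strand: gtattttatgtTATTTATagatctgaattt
*Ccl20* pair of pentamers, chr1:83119056-83119085, plus strand: gtaaagatATTTAatgttctgtttATTTAa
*Ccl22* heptamer, chr8:94750819-94750848, plus strand: agctatagttaTATTTATataggaaagagg
*Ccr4* pentamer, chr9:114491159-114491188, minus strand: tttcttttATTTAcgccttctctttccttc

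*Ccl20* held 9 pentamers in the 1050 bases of its longest annotated 3′-UTR. In its other 2 annotated coding transcripts the 3′-UTR is 450 bases long and keeps 5 of these pentamers and the heptamer, and the windows printed above lie in both versions. *Ccl22* had 2 pentamers in 1813 bases and *Ccr4* had 2 in 1597 bases. The remaining 6 genes had none, in 3′-UTRs of 31 bases (*Ccl27a*) to 762 bases (*Ccr7*). Thus 3 of 9 members held the pentamer, against 66.2% of 19655 genes of the table with an annotated 3′-UTR, and 2 of 9 held the heptamer, against 28.3%. As many pentamers as in the longest *Ccl20* 3′-UTR were present in 8.9% of genes, and as high a number per base in 1.8%. For the 450-base version these shares were 22.1% and 0.9%. A motif in the reference is a description of sequence and was not shown here to bind TTP.

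**Figure D1:**
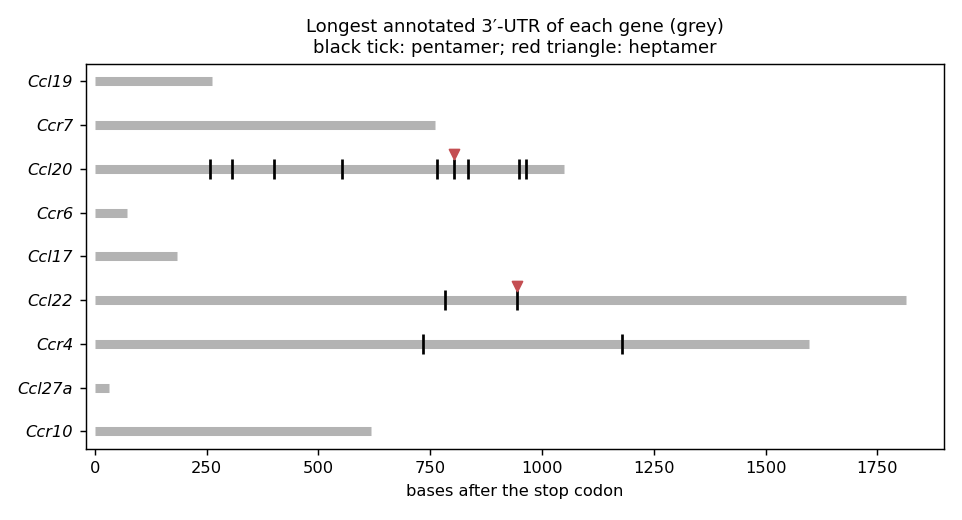
Positions of AU-rich motifs along the longest annotated 3′-UTR of each gene, in bases after the stop codon. Grey bars are the 3′-UTRs, black ticks the pentamer and red triangles the heptamer: *Ccl20* carries 9 pentamers, *Ccl22* and *Ccr4* carry 2 each, and the other bars are empty.

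Total counts per library ran from 19595035 to 36419573. The targeted gene, *Zfp36*, had 1824 to 2496 normalized counts (TMM-scaled counts at the mean library size) in WT and 4196 to 6134 in *Zfp36*ΔARE skin. The libraries also differed in other ways that move with the groups. Counts of 4 Y-linked genes summed to between 3349 and 4262 in *Zfp36*ΔARE replicates 2 to 5 and to at most 1 in the other 6 libraries. *Xist*, an X-linked RNA of female cells, showed the opposite. It had 14829 to 26103 counts in WT, 28087 in *Zfp36*ΔARE replicate 1 and 4 to 15 in replicates 2 to 5. These 2 marks of sex and the genotype are largely shared and cannot be told apart beyond the single *Zfp36*ΔARE replicate 1. Hair shaft keratin transcripts, summed, ranged from 2940 to 104600 normalized counts in WT and from 164600 to 467000 in *Zfp36*ΔARE skin, with WT replicates 3 and 1 lowest. Skeletal muscle transcripts ran the other way, with 9 of 10 lower in *Zfp36*ΔARE skin, where 19.1% of all genes tested were lower. Because the tissue is a mixture, fewer cells of a type and less RNA per cell cannot be told apart in any value below.

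Of the 9 genes, 8 were abundant enough for edgeR's quasi-likelihood test, in which p-values were adjusted over 15543 genes. *Ccl19*, *Ccl20* and *Ccl22* were lower in *Zfp36*ΔARE skin at an adjusted p under 0.05, and no member was higher. Over all genes tested, 34.3% passed the same rule, 19.1% lower and 15.3% higher. With a fold over 2 in addition, *Ccl19* and *Ccl20* remained, where 8.31% of all genes did so and 6.64% were lower. The log2 fold change was below 0 in 7 of the 8 members, whether or not they passed, against 49.1% of all genes. All 3 genes that passed are ligands, out of 5 ligands tested. None of the 3 receptors tested passed in edgeR, where 0 had an unadjusted p under 0.05, or in limma-voom. DESeq2 gave 0 receptors at an adjusted p and 1 at an unadjusted p under 0.05. The median log2 fold change of the 8 genes was -0.68, beside 0.0076 for all genes.

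**Figure D2:**
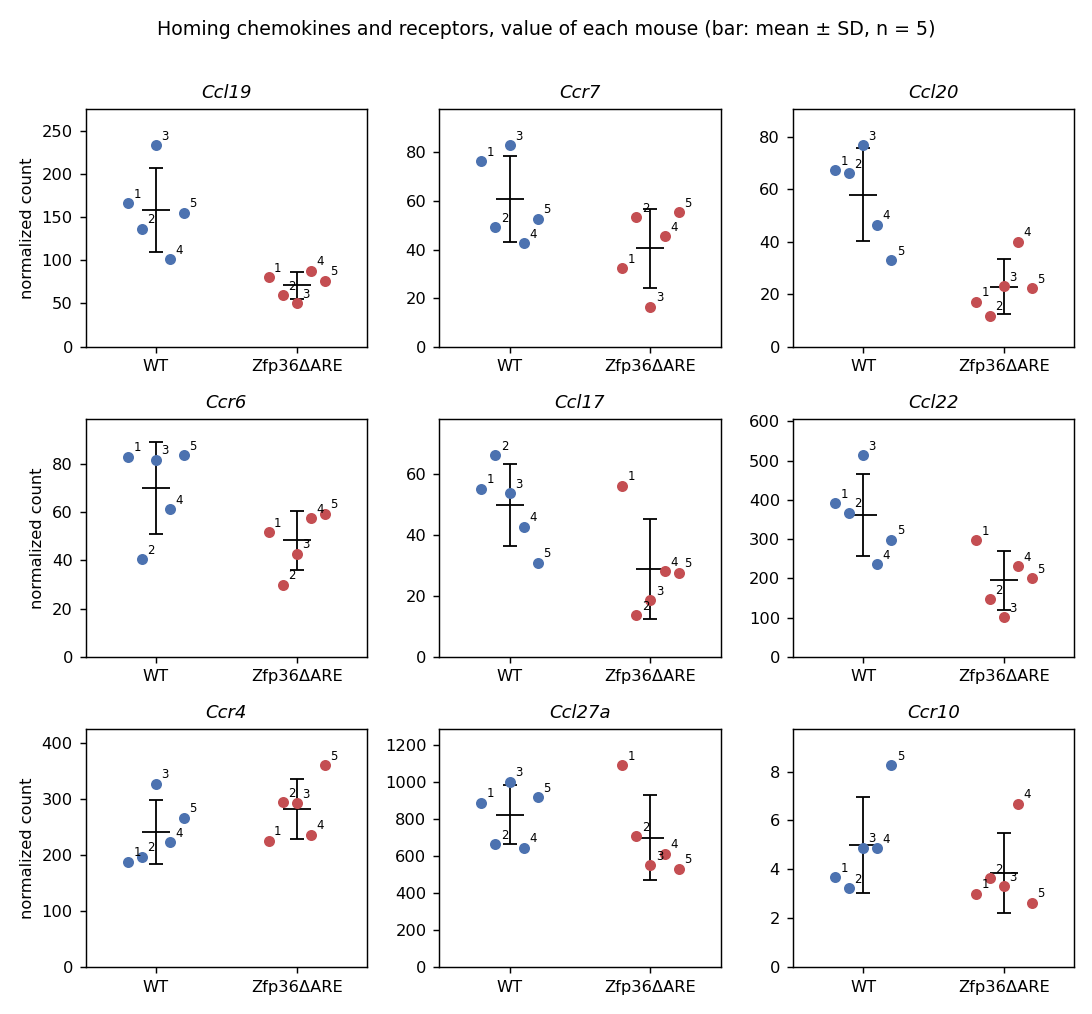
Normalized counts of the 9 homing genes in each mouse, one panel per gene with its own axis starting at 0. Points are mice, numbered by replicate, and bars give the mean and SD of 5 mice. The groups separate in *Ccl19* and nearly so in *Ccl20*. In *Ccr6* only WT replicate 2 lies in the *Zfp36*ΔARE range, and the other receptors overlap more.

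*Ccl19* (Entrez 24047; chromosome 4, 42754525 to 42756577, minus strand), the ligand of CCR7 displayed along the path into lymphatic tissue, had 166, 137, 233, 101 and 155 normalized counts in WT replicates 1 to 5. In *Zfp36*ΔARE replicates 1 to 5 it had 80.2, 59.8, 50.5, 88.1 and 76.5. Every *Zfp36*ΔARE mouse lay below every WT mouse, a separation in the lower direction seen in 11.9% of all genes tested. The WT mean was 158 ± 48.5 and the *Zfp36*ΔARE mean 71.0 ± 15.4 (SD, n = 5 mice per group). On the log2 scale the difference was -1.15 (SE 0.232, adjusted p = 0.0082), or a 2.22-fold lower level. It passed in all 10 fits that dropped 1 library, at -1.28 to -0.98. *Zfp36*ΔARE replicate 1, which had no more Y-linked counts than the WT libraries, was also below all WT values. A term for the Y-linked counts sets *Zfp36*ΔARE replicates 2 to 5 apart. The log2 fold change in that fit compares replicate 1 alone with WT, and it was -0.98. With the hair shaft score as a covariate the log2 fold change was -0.61 (adjusted p = 0.25). In the reference, 52.0% of the 50-base stretches of *Ccl19* also occur in other annotated genes, among them *Ccl19-ps1* and *Ccl19-ps3*, so its counts are uncertain in level.

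*Ccr7* (Entrez 12775; chromosome 11, 99144196 to 99155077, minus strand), the receptor for CCL19 on mature dendritic cells and naive T cells, had 76.4, 49.3, 83.0, 42.7 and 52.6 normalized counts in WT. Its values in *Zfp36*ΔARE skin were 32.2, 53.4, 16.5, 45.4 and 55.4. The groups overlapped: *Zfp36*ΔARE replicates 2, 4 and 5 fell inside the WT range, and replicates 1 and 3 lay below it. The log2 fold change was -0.58 (SE 0.319, 95% interval -1.29 to 0.12, adjusted p = 0.17), which did not pass, and the interval holds both a fold over 2 and no change. With the hair shaft score as a covariate it was 0.0038 (adjusted p = 0.997).

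*Ccl20* (Entrez 20297; chromosome 1, 83116766 to 83119167, plus strand), the epithelial ligand of CCR6 and the member with the motif-rich 3′-UTR, had 67.2, 66.2, 76.9, 46.6 and 33.0 normalized counts in WT mice. In *Zfp36*ΔARE mice the values were 17.2, 11.8, 23.1, 40.1 and 22.4. Replicate 4, at 40.1, was above the lowest WT mouse, and the other 4 lay below all of WT. The means were 58.0 ± 17.8 and 22.9 ± 10.6 (SD, n = 5 mice per group). This is a log2 fold change of -1.37 (SE 0.333, adjusted p = 0.0143), the largest fall among the 8 tested genes. These are small numbers, since the raw counts per library ran from 13 to 82. The gene passed in all 10 fits that dropped 1 library, at -1.65 to -1.19. Without WT replicates 1 and 3 together it was at -1.12 and no longer passed (adjusted p = 0.0681). It did not pass beside the hair shaft score (-0.91, adjusted p = 0.364). Beside a Y-linked term, where *Zfp36*ΔARE replicate 1 alone is compared with WT, it was at -1.74.

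*Ccr6* (Entrez 12458; chromosome 17, 8236043 to 8257141, plus strand), the receptor that reads CCL20, had 82.9, 40.4, 81.8, 61.1 and 83.6 normalized counts in WT and 51.7, 29.9, 42.8, 57.4 and 59.3 in *Zfp36*ΔARE skin. WT replicate 2 stood in the lower part of the *Zfp36*ΔARE range, and the other 4 WT mice were above it. The log2 fold change of -0.54 (SE 0.252, 95% interval -1.10 to 0.02, adjusted p = 0.117) did not pass. Without WT replicate 2 it was -0.69 and passed (adjusted p = 0.041), the only 1 of the 10 fits with 1 library left out that passed. It did not pass without WT replicates 1 and 3 together (-0.36, adjusted p = 0.427) or with the hair shaft score (-0.25, adjusted p = 0.79).

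*Ccl22* (Entrez 20299; chromosome 8, 94745590 to 94751699, plus strand), a CCR4 ligand of dendritic cells and macrophages, had 391, 368, 514, 236 and 298 normalized counts in WT replicates 1 to 5. *Zfp36*ΔARE replicates 1 to 5 had 297, 147, 101, 231 and 200. Replicate 1 fell within the WT range, and the other 4 were below every WT mouse. The WT mean was 361 ± 105 and the *Zfp36*ΔARE mean 195 ± 75.6 (SD, n = 5 mice per group), which gave a log2 fold change of -0.88 (SE 0.287, adjusted p = 0.0373), a fall of less than 2-fold. The call depended on single libraries: it was lost when WT replicate 1, 2 or 3 or *Zfp36*ΔARE replicate 2, 3 or 5 was left out, with adjusted p between 0.0588 and 0.0856 in those 6 fits and the log2 fold change between -0.90 and -0.72. Without WT replicates 1 and 3 together it was at -0.62 and did not pass (adjusted p = 0.198). Beside the hair shaft score the log2 fold change was -0.32 (adjusted p = 0.712). Beside a Y-linked term, where *Zfp36*ΔARE replicate 1 alone is compared with WT, it was -0.28.

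*Ccl17* (Entrez 20295; chromosome 8, 94810453 to 94812036, plus strand), the other CCR4 ligand and a neighbor of *Ccl22* on the same strand, had 55.3, 66.2, 53.7, 42.7 and 31.0 normalized counts in WT. The values in *Zfp36*ΔARE skin were 56.2, 13.6, 18.7, 28.0 and 27.7. As for *Ccl22*, replicate 1 was inside the WT range and the other 4 lay below it. The log2 fold change of -0.77 (SE 0.362, 95% interval -1.57 to 0.03, adjusted p = 0.118) did not pass. *Zfp36*ΔARE replicate 1 decided this result: without it the value was -1.20 (adjusted p = 0.0235). A Y-linked term sets replicates 2 to 5 apart, so the log2 fold change then compares replicate 1 alone with WT. It was 0.17, which restates the level of that 1 mouse. In the fit without replicate 1, genotype and the Y-linked difference coincide fully and cannot be told apart.

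*Ccr4* (Entrez 12773; chromosome 9, 114490316 to 114504916, minus strand), the receptor shared by CCL17 and CCL22, was the single member with a log2 fold change above 0. It had 188, 197, 327, 223 and 266 normalized counts in WT and 226, 294, 292, 236 and 360 in *Zfp36*ΔARE skin. The groups overlapped, although each *Zfp36*ΔARE mouse was above the WT median of 223. The log2 fold change was 0.23 (SE 0.179, 95% interval -0.17 to 0.63, adjusted p = 0.329), smaller than the spread between mice. With the Y-linked term, where *Zfp36*ΔARE replicate 1 alone is compared with WT, it was -0.09.

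*Ccl27a* (Entrez 20301; chromosome 4, 41769467 to 41774247, minus strand), the keratinocyte ligand of CCR10, had 887, 664, 1001, 644 and 916 normalized counts in WT. In *Zfp36*ΔARE skin it had 1090, 707, 550.2, 612 and 531. Replicate 1 was the highest of all 10 mice, whereas replicates 3 to 5 were below every WT mouse. The log2 fold change was -0.23 (SE 0.208, 95% interval -0.69 to 0.23, adjusted p = 0.397), and it was 0.04 with the hair shaft score. With the Y-linked term, where *Zfp36*ΔARE replicate 1 alone is compared with WT, it was 0.41. Without *Zfp36*ΔARE replicate 1 it was -0.46 (adjusted p = 0.0533), a fit in which genotype and the Y-linked difference coincide fully. Dropping any 1 library gave values from -0.46 to -0.15. Of its 50-base stretches, 45.0% also occur in other annotated genes, among them *Gm13306* and *Ccl27b*, so reads may be split between copies.

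*Ccr10* (Entrez 12777; chromosome 11, 101172997 to 101175443, minus strand), the receptor for CCL27, had 4, 4, 4, 5 and 8 raw counts in WT and 4, 4, 3, 5 and 2 in *Zfp36*ΔARE libraries. It was too low for the test. With no filter its log2 fold change was -0.38 (SE 0.415, adjusted p = 0.516), so a difference was not detectable at this depth.

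**Figure D3:**
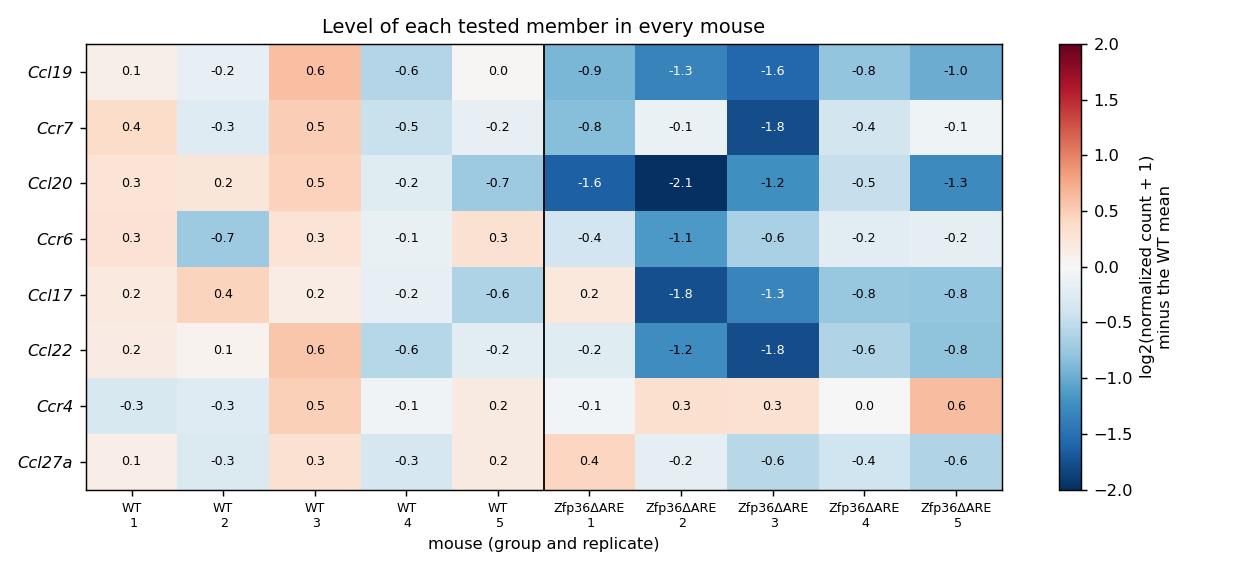
Log2(normalized count + 1) of the 8 tested genes in each mouse, minus the WT mean of the gene. Blue is below and red above the WT mean: *Zfp36*ΔARE replicates 2 and 3 are lowest for *Ccl17* and *Ccl22*, while replicate 1 is near or above the WT mean for *Ccl17*, *Ccl22* and *Ccl27a*.

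The ligand of keratinocytes was the most abundant member and its receptor the least. Expressed per length, as CPM per kilobase of the gene length in the table, the WT order was *Ccl27a* (21.0 ± 4.07), *Ccl22* (7.48 ± 2.17), *Ccl19* (4.12 ± 1.26), *Ccl17* (3.63 ± 0.979), *Ccr4* (3.23 ± 0.770), *Ccl20* (2.71 ± 0.831), *Ccr6* (1.26 ± 0.342), *Ccr7* (1.15 ± 0.337) and *Ccr10* (0.108 ± 0.0428; SD, n = 5 throughout). The WT ranges of *Ccl27a* (16.5 to 25.6) and *Ccl22* (4.88 to 10.6) did not meet, nor did those of *Ccr7* and *Ccr10*. Those of *Ccl20* (lowest 1.54) and *Ccr6* (highest 1.51) stayed apart only narrowly. The order depends on the lengths used, 802 bases for *Ccl20* and 1440 for *Ccl19*, where the annotation holds 1421 and 867 exonic bases. The places of *Ccl19* and *Ccl27a* are also uncertain because of their shared sequence. The ranges of the remaining neighbors, from *Ccl22* down to *Ccl20* and between *Ccr6* and *Ccr7*, overlapped. In *Zfp36*ΔARE skin the level of *Ccr4* per length was 3.79 ± 0.724 and stood next to that of *Ccl22* at 4.04 ± 1.56. *Ccl19* was there at 1.85 ± 0.402 and *Ccl17* at 2.10 ± 1.20, both means below that of *Ccr4* on this scale.

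Each ligand was also read against its receptor within the same library, as the log2 ratio of normalized counts with 1 added to each. The mean *Ccl22*/*Ccr4* ratio was 0.57 ± 0.43 in WT and -0.60 ± 0.77 in *Zfp36*ΔARE skin, a difference of -1.17 (exact two-sided permutation test, p = 0.0317, adjusted p = 0.106 over 5 pairs). WT replicates 1 to 5 had 1.05, 0.90, 0.65, 0.08 and 0.16, and *Zfp36*ΔARE replicates 1 to 5 had 0.39, -1.0, -1.52, -0.03 and -0.84, so that replicate 1 alone reached the WT range. Without that replicate the difference was -1.42 (exact test, adjusted p = 0.0397), but genotype and the Y-linked difference then coincide fully and cannot be told apart. The *Ccl17*/*Ccr4* ratio differed by -1.12 (exact p = 0.0635, adjusted p = 0.106), that of *Ccl20*/*Ccr6* by -0.83 (exact p = 0.0556, adjusted p = 0.106) and that of *Ccl19*/*Ccr7* by -0.48 (exact p = 0.135, adjusted p = 0.169). For *Ccl27a*/*Ccr10* the difference was 0.04 (exact p = 0.921). None of the 5 ratios passed after adjustment, where 5 mice against 5 could reach an unadjusted p of 0.0079.

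Of 12 other listed ligands and receptors of the same pathways, 7 were tested, and 1 was lower and 1 higher, where 34.3% of all genes passed. DESeq2 called 3 of the 7, and 4 had an unadjusted p under 0.05 in edgeR. *Ackr2*, a decoy receptor that takes up inflammatory CC chemokines including CCL17 and CCL22, had 138, 119, 209, 128 and 79.5 normalized counts in WT and 35.2, 59.8, 47.2, 52.1 and 63.3 in *Zfp36*ΔARE skin. The groups did not overlap, and the log2 fold change was -1.39 (SE 0.256, adjusted p = 0.0068). Of all genes tested, 23.1% had groups without overlap in either direction and 11.9% in the lower direction. *Ccl25*, the ligand of CCR9, was higher without overlap, at 60.8, 67.0, 61.0, 64.1 and 85.6 in WT against 100.4, 112, 102, 88.1 and 98.9, a log2 fold change of 0.57 (SE 0.137, adjusted p = 0.0138), although 204 of its exonic bases overlap *Elavl1*. *Ackr4*, which scavenges CCL19, CCL21 and CCL25, had a log2 fold change of -0.43 (adjusted p = 0.0614), and *Ccrl2*, a nonsignalling chemerin receptor, one of -0.68 (adjusted p = 0.0951). *Ccr9*, the receptor of CCL25, was at -0.48 (adjusted p = 0.228), *Ccr8* at -0.36 (adjusted p = 0.325) and its ligand *Ccl1* at -0.03 (adjusted p = 0.964). *Ccl28*, the second ligand of CCR10, had 1 to 15 counts per library and was not tested.

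The CCL21 genes, whose product is the other ligand of CCR7, cannot be read here. *Ccl21a*, *Ccl21b*, *Ccl21c* and *Ccl27b* were listed at 0 counts in all 10 libraries, which allows up to 3 counts in each by counting error alone. Yet 71.6% of the 50-base stretches of *Ccl21a*, 100% of those of *Ccl21b* and 98.1% of those of *Ccl27b* also occur in other annotated genes, so these zeros are uncertain. Of 15 tested CC chemokines and receptors of the inflammatory and monocyte branch, 10 were lower and 0 higher. The shares among all genes tested were 19.1% lower and 15.3% higher. For these 15 the median log2 fold change was -1.01. The most abundant of them were *Ccl8* (log2 fold change -0.38, adjusted p = 0.118), *Ccl6* (-1.57, adjusted p = 0.0072) and *Ccl9* (-1.74, adjusted p = 0.0054). The difference from the homing set was not tested.

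**Figure D4:**
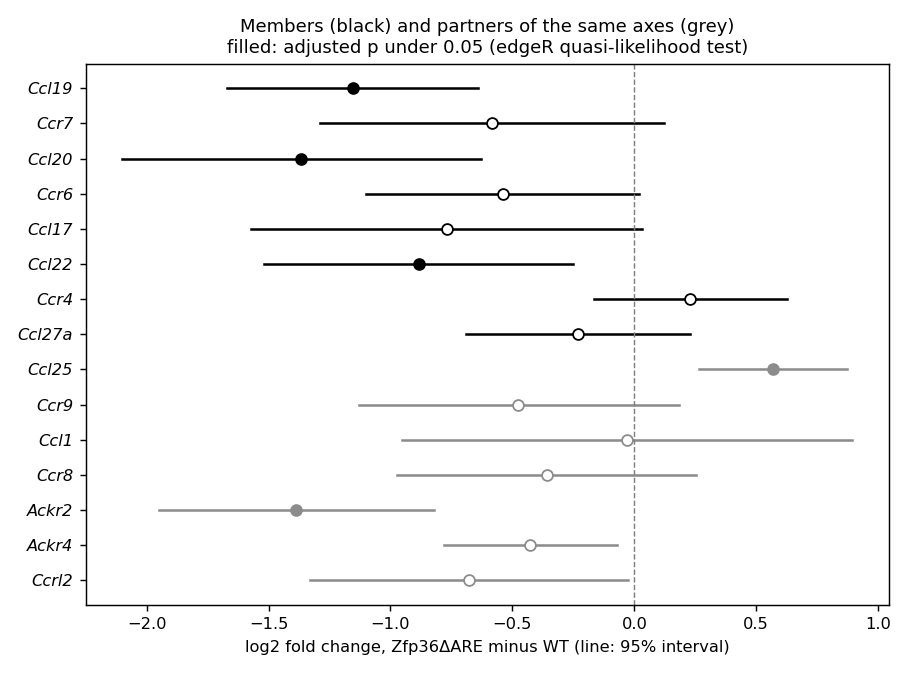
Log2 fold change, *Zfp36*ΔARE minus WT, of the 8 tested homing genes (black) and the 7 tested partners (grey), with lines for 95% intervals and filled points for an adjusted p under 0.05. *Ccl19*, *Ccl20*, *Ccl22* and *Ackr2* lie to the left with intervals below 0, *Ackr4* and *Ccrl2* have intervals below 0 without passing the adjusted test, *Ccl25* lies to the right, and the intervals of *Ccr7*, *Ccr6*, *Ccl17*, *Ccr4* and *Ccl27a* cross 0.

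Markers of the cells that make or follow these chemokines were read beside them. Their calls stand beside 34.3% of all genes tested, 19.1% lower and 15.3% higher. Of 10 T cell markers, none passed (0 at an unadjusted p under 0.05 in edgeR, and 0 at an adjusted p in DESeq2 or limma-voom), with a median log2 fold change of -0.14 and summed levels of 883 to 1569 normalized counts in WT against 871 to 1272 in *Zfp36*ΔARE skin. Their most abundant genes, the kinase gene *Lck*, the coreceptor gene *Cd4* and the CD3 chain gene *Cd3g*, had log2 fold changes of 0.21, -0.01 and 0.05. The 5 tested genes of gamma delta and type 17 T cells gave 0 calls (1 at an unadjusted p under 0.05 in edgeR, 1 call in DESeq2 and 0 in limma-voom), with summed levels of 1594 to 1856 in WT and 1232 to 1574. Of 7 regulatory and type 2 T cell genes, 3 were lower and 1 higher: *Il1rl1*, the IL-33 receptor gene, fell (log2 fold change -1.27, adjusted p = 0.0166), as did *Ikzf2* (-0.64, adjusted p = 0.0179), while *Gata3*, a transcription factor also of keratinocytes and hair follicles, rose (0.51, adjusted p = 0.0116). B and plasma cell markers gave 1 lower call of 4, *Jchain*, the joining chain of secreted antibodies (-2.35, adjusted p = 0.0024).

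Of 12 dendritic cell markers, 9 were lower and 0 higher, where 19.1% of all genes were lower and 15.3% higher. Their median log2 fold change was -0.88, with summed levels of 4595 to 8692 in WT against 2421 to 3371 in *Zfp36*ΔARE skin. *Mgl2* and *Clec10a*, lectins of dermal dendritic cells and macrophages, fell by 1.27 and 1.28 on the log2 scale (adjusted p = 0.0072 and 0.0053), and *Itgax*, the gene of CD11c, by 1.46 (adjusted p = 0.0193). Macrophage markers were lower in 11 of 12 and higher in 0, median -1.37, with *Lyz2* at -1.89, *Mrc1* at -1.40 and *Csf1r* at -1.50 (adjusted p = 0.0037, 0.0047 and 0.0045). Genes of migrating dendritic cells were lower in 3 and higher in 1 of 11, near the 34.3% of all genes that passed. Their sum, 8349 to 12350 in WT and 12210 to 14240 in *Zfp36*ΔARE skin, was carried by *Lad1* (0.49, adjusted p = 0.0324), which keratinocytes also express. Langerhans cell markers were lower in 2 of 7 and higher in 0, also near the share of all genes. Of their 3 most abundant genes, *Cd74*, the invariant chain of MHC class II, fell (-1.01, adjusted p = 0.0068). *Epcam* was at 0.05 (adjusted p = 0.794) and *Mfge8* at -0.28 (adjusted p = 0.147).

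Lymphatic endothelial markers, which mark the vessels where CCR7 ligands are displayed, were lower in 5 of 7 and higher in 0. Over all genes, 19.1% were lower and 15.3% higher. The median log2 fold change of these markers was -0.97, with summed levels of 2467 to 4667 in WT and 1602 to 2043 in *Zfp36*ΔARE skin. *Lyve1* fell by 1.29 on the log2 scale (adjusted p = 0.0151) and *Mmrn1* by 1.03 (adjusted p = 0.012), while *Pdpn*, at -0.35, did not pass (adjusted p = 0.0592). Among keratinocyte lists, basal markers were lower in 3 of 8 (median -0.23) and suprabasal markers lower in 2 and higher in 1 of 8 (median -0.36). Both counts are near the 34.3% of all genes that passed. Of stress keratinocyte genes, 0 of 8 passed in any of edgeR, DESeq2 and limma-voom, also with 0 at an unadjusted p under 0.05 in edgeR. The most abundant, *Krt5* and *Krt14* of the basal layer, had log2 fold changes of -0.07 and -0.15 with overlapping groups, and *Krt10* of the layers above one of -0.62 (adjusted p = 0.0683). Dermal and subcutaneous lists were lower as well, in 6 of 9 fibroblast and 6 of 8 adipocyte markers, with *Plin4*, a lipid droplet protein gene, at -1.04 (adjusted p = 0.0053). The part of these cell and tissue markers in the chemokine values was not tested.

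Among 10 genes known as NF-κB targets, which many chemokine genes are too, 6 were lower and 0 higher (median -0.46), including *Nfkbia*, the inhibitor of NF-κB (-0.49, adjusted p = 0.0074), and *Nfkb2*, a subunit (-0.44, adjusted p = 0.0123). Of 10 mRNAs known to be bound by TTP, 3 were lower and 0 higher (median -0.29), where 19.1% of all genes were lower and 15.3% higher. *Mmp9*, a matrix protease gene, fell by 1.65 (adjusted p = 0.0138), whereas *Vegfa*, an angiogenic factor gene, was at -0.14 (adjusted p = 0.467) and *Ier3*, an early response gene, at 0.10 (adjusted p = 0.66).

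**Figure D5:**
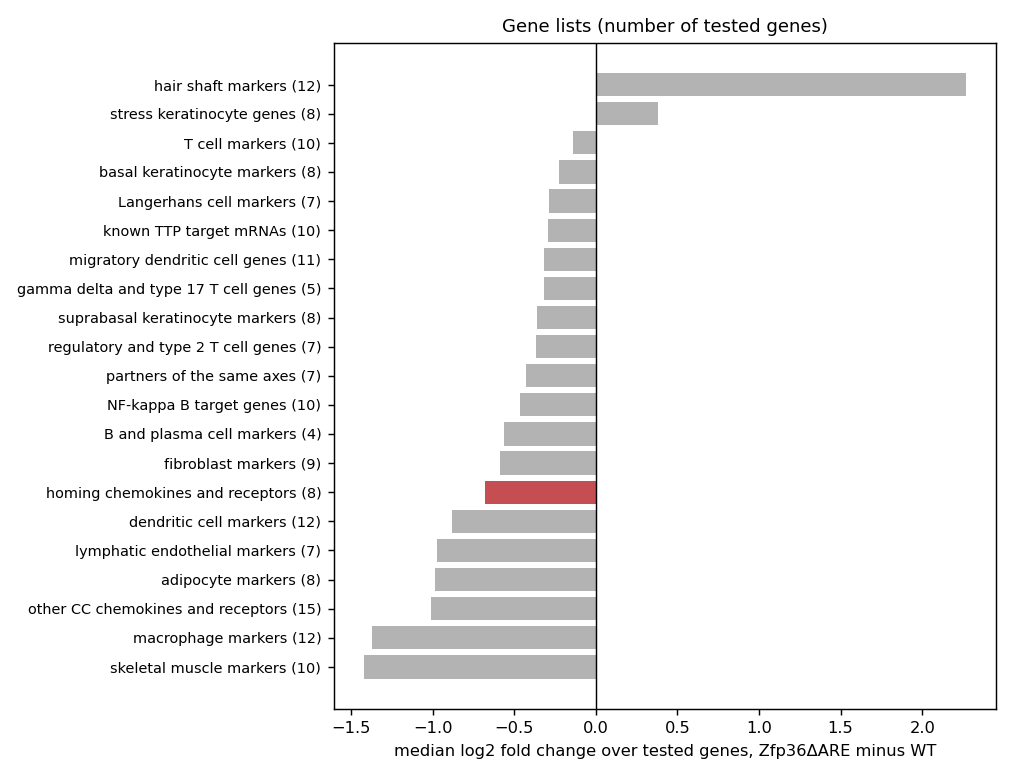
Median log2 fold change, *Zfp36*ΔARE minus WT, of the tested genes of each list, with the number of genes in brackets and the homing chemokines and receptors in red. The homing set, at -0.68, lies between the fibroblast (-0.59) and dendritic cell (-0.88) lists, T cell markers are near 0 and hair shaft markers stand apart at 2.27.

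Across the 10 libraries the members that moved most alike were *Ccl19* and *Ccl22*, with a Pearson correlation of log2(CPM + 1) of 0.92, and 0.86 after each group mean was removed. *Ccl17* and *Ccl22*, the neighboring CCR4 ligands, followed with 0.85 and 0.74. *Ccr4* had a correlation of -0.58 with its ligand *Ccl17*, and -0.45 with group means removed. With *Ccl22* it had -0.35, and -0.09 with group means removed. *Ccr7* had 0.76 with *Ccl19*, and 0.68 with group means removed. The 10 points share the differences in Y-linked, hair shaft and muscle transcripts given above. The genes most like *Ccl19* over all libraries were *Atp2a3*, *Il2rg* and *Mefv* (0.988, 0.986 and 0.985), all expressed in leukocytes. With group means removed, the nearest to *Ccl19* were *Bin2*, *Cd4* and *Synj2* (0.977, 0.976 and 0.969). The nearest to *Ccl22* on that measure were *Hmga2-ps1*, *Myh1* of the skeletal muscle list and *Grap2* (0.972, 0.964 and 0.961). Over all libraries, *Ccl20* was closest to *Cyp4f18*, *Igsf6* and *Tmem176b* (0.989, 0.987 and 0.983), *Ccl22* to *Grap2*, *Hmga2-ps1* and *Cubn* (0.980, 0.977 and 0.976), and *Ccl17* to *Fam102b*, *Sri* and *Crlf2* (0.961, 0.953 and 0.949). The receptors had other neighbors: *Runx3*, a T cell transcription factor, led for *Ccr7* (0.953), *G6pc3* for *Ccr6* (0.908) and the epithelial keratin *Krt19* for *Ccr4* (0.921). *Ccl27a* was nearest to *Rdh5* (0.932). These neighbors are the highest of all genes tested and are given as a description.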

How the data were processed

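RNA from 10 skin samples was sequenced in pairs of reads. The authors removed reads of mean quality under 20, aligned the rest to mm10 with STAR 2.5.2b, counted with featureCounts (Subread 1.5.0-p1) and deposited raw counts per gene, without normalization. Handling of multimapped reads and of strand is not given in the sources used here. The 2 rows without a gene name held 7.38e-05% of counts and were left out.

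edgeR 4.0.16 in R 4.3.3 fitted genotype alone (TMM, filterByExpr, robust quasi-likelihood) with Benjamini-Hochberg adjustment over 15543 genes. A gene was called at an adjusted p under 0.05. The study also asked for a fold over 2, which *Ccl19* and *Ccl20* passed. Alternatives were DESeq2 1.42.0, voom in limma 3.58.1, other scalings and filters, a replicate block, Y-linked and hair shaft terms, and libraries left out. The hair shaft score is the mean log2(CPM + 1) of 12 genes. The scripts were tested on simulated data. Controls were littermates per the methods, but which mice shared a litter is not given in the sources used here, so litter was not a term in any fit. Intervals and floors cover counting error or the fitted spread only.

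Members and lists were chosen with earlier results of these data known. Named genes were the 9 members, partners with at least 10 counts in 1 library, up to 3 genes of each list with the most counts, and the 3 genes most correlated with each tested member.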

Additional observations from a re-analysis of the deposited data

Results flagged for a closer look

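In 3 of 44 groups of 5 values, 1 library stood far from the other 4, where chance gives about 1 in 20, or 2.2 groups. *Ccr10* reached 6.68 normalized counts in replicate 4 of *Zfp36*ΔARE, the others of that group being at 2.64 to 3.62, which are differences of a few raw counts. *Ccl25* had 85.6 in WT replicate 5 against 60.8 to 67.0 in the other WT mice, still below the lowest *Zfp36*ΔARE value of 88.1. *Ccrl2* had 150.1 in WT replicate 3 against 48.5 to 70.9, and this library also had the highest WT values of *Ccl19*, *Ccr7*, *Ccl20*, *Ccl22*, *Ccr4* and *Ccl27a* and the lowest hair shaft score, 2.79.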

How the results depend on the processing

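DESeq2, limma-voom, other scalings, no filter and a filter of at least 10 counts in every library left the 8 tested genes on the same side of the threshold and in the same direction. A term for Y-linked counts leaves *Zfp36*ΔARE replicate 1 alone to be compared with WT, so only effect sizes are given. There *Ccl19* was at -0.98, *Ccl20* at -1.74, *Ccl22* at -0.28, *Ccl17* at 0.17, *Ccr4* at -0.0882 and *Ccl27a* at 0.41. With the hair shaft score edgeR called 13 genes, 8 of them with a fold over 2. In that fit *Ccl19* was at -0.61, *Ccl20* at -0.91, *Ccl22* at -0.32, *Ccr7* at 0.0038 and *Ccl27a* at 0.0361. Without WT replicates 1 and 3 together, 2504 genes were called, 526 with a fold over 2, and neither *Ccl20* (-1.12) nor *Ccl22* (-0.62) passed. The cause was not tested. Main counts were 5335 genes and, with a fold over 2, 1292.

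With 1 library left out, 3333 to 5349 genes were called, and 839 to 1521 with a fold over 2. The lowest came without *Zfp36*ΔARE replicate 2 and WT replicate 3. Counts were also over 1.5 times smaller without WT replicate 1 (3454) and *Zfp36*ΔARE replicate 3 (3506). *Ccl22* ranged from -1.09 to -0.72, *Ccl17* from -1.20 to -0.58, *Ccr6* from -0.69 to -0.40, the *Ccl22*/*Ccr4* ratio from -1.42 to -0.94 and the *Ccl27a*/*Ccr10* ratio from -0.19 to 0.25 (below 0 without WT replicates 4 or 5, -0.05 and -0.09, or *Zfp36*ΔARE replicate 1). With a pseudocount of 5 that last ratio was -0.0942.

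Replicate numbers do not pair the mice: same-numbered deviations correlated between -0.19 and 0.09, and 0 of 5 WT libraries matched best with their own number. With the replicate block 2740 genes passed, *Ccl22* was at -0.91 (adjusted p = 0.0897) and *Ccl19* at -1.13 (adjusted p = 0.0414). An exact sign-flip test of 5 pairs cannot go below p = 0.0625. Low counts limit *Ccl20* and *Ccl17*, and *Ccr10* could not be measured.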
